A study of Mus musculus with 59 samples.

Results

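The BCL6 cistrome of mouse liver was compared between the fed and the overnight fasted state in male C57BL/6 wild-type mice, using 1 deposited list of BCL6 ChIP-seq peaks for each state. The fed list held 15642 peaks and the fasted list 9613, together 25255 of the 102931 peaks in the 7 lists of the series. Each list was made by the authors from 3 samples, so the 2 lists rest on 6 of the 59 samples. A fed and a fasted peak were matched when their centres lay within 200 bp. Fed peaks with a match are called kept, fed peaks without one lost, and fasted peaks without one gained. A second fed list of 17454 BCL6 peaks came from 3 samples of ad lib fed male Bcl6 fl/fl mice, which carry the floxed Bcl6 alleles without Cre and stand for wild type, and it was used as an independent look at fed sites. Peaks of the nuclear receptors PPARα and PPARδ in fed and fasted C57BL/6 livers, each again from 3 samples, were used to describe what else lay at a site. All chromatin came from whole liver, so non-parenchymal cells were included. The study found very similar BCL6 peaks when livers with hepatocyte-specific Bcl6 knockout served as background. It took its liver BCL6 cistrome to reflect binding in hepatocytes. The lists give chromosome, start and end only. Read depth, tag counts and enrichment scores are therefore unknown here, and a lost peak is a site that was not called in the fasted list, whose remaining signal cannot be given. Likewise, a kept peak was called in both states, and a fall in its signal would not be seen.

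BCL6 is a zinc finger repressor of the ZBTB family that recruits corepressors such as BCOR, and with them histone deacetylase activity, to DNA elements resembling those of STAT factors. It is best known as the master regulator of germinal centre B cells. In hepatocytes it represses lipid genes, many of which are activated by PPARα when fatty acids reach the liver during fasting.

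A set of 7 stretches of 100 bp shows what such sites look like. The first 4 are the centres of the peaks nearest to the transcription start of Acot4, Angptl4, Irs2 and Pik3r1, genes of acyl-CoA hydrolysis, lipoprotein lipase inhibition and insulin signalling that recur below. The other 3 were chosen after the values were seen. They are, for each class, the peak nearest to a start that carried an exact BCL6 element and lay outside exons. All are plus-strand sequence of mm10 (the GRCm38 assembly of RefSeq), and capitals mark a match to the BCL6 element TTCCTAGAA on either strand with up to 1 mismatch.
Acot4: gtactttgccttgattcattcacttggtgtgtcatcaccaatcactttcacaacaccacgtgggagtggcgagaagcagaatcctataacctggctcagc
Angptl4: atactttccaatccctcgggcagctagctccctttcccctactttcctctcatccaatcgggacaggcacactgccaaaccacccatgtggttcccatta
Irs2: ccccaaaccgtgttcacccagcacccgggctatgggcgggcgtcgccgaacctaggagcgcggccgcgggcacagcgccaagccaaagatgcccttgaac
Pik3r1: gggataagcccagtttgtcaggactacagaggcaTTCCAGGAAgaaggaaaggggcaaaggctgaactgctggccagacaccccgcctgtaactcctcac
Keg1: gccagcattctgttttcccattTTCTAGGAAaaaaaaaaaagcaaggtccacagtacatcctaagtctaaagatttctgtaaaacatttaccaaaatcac
Rrn3: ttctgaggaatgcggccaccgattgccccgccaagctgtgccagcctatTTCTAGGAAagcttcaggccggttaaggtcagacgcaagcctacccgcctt
Serpina3f: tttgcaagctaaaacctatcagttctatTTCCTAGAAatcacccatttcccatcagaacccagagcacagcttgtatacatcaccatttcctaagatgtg
The Acot4 window, chr12:84038257-84038356, was a kept peak 72 bp upstream of the start. The Angptl4 window, chr17:33779396-33779495, was a lost peak in intron 3. The Irs2 window, chr8:11009793-11009892, was a lost peak 914 bp upstream of Irs2, within intron 1 of the divergent transcript 9530052E02Rik. The Pik3r1 window, chr13:101764249-101764348, was a kept peak in intron 1, and its element TTCCAGGAA had 1 mismatch on the minus strand. Exact elements stood in the kept peak 79 bp upstream of Keg1 (chr19:12695661-12695760), the lost peak 123 bp upstream of Rrn3 (chr16:13780526-13780625) and the gained peak 99 bp upstream of Serpina3f (chr12:104214395-104214494). The first 3 windows held no BCL6 element by these letters, and an exact element was found in peaks of every class.

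Of the 15642 fed peaks, 7656 were kept and 7986 were lost, so 51.1% of fed BCL6 peaks had no fasted counterpart (95% Wilson interval 50.3 to 51.8). Of the 9613 fasted peaks, 1957 were gained, or 20.4% (19.6 to 21.2). Lost peaks outnumbered gained peaks by 4.08 to 1. Over the 17599 sites bound in either state, 43.5% were kept, 45.4% lost and 11.1% gained. These shares follow from the matching rule and the lengths of the lists and carry no test. Intervals here and below cover counting over peaks only, since neither list gives a spread between its replicates.

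The matching was sharp. Every match was one to one, and the centres of kept peaks lay a median of 24 bp apart, with quartiles of 11 and 44 bp. The largest distance of a match was 195 bp, and 0.614% of kept peaks had their partner 150 to 200 bp away. Just beyond the limit, 20 lost peaks had a fasted centre between 200 and 250 bp away, and so did 20 gained peaks from the fed side. Lost peaks were mostly far from any fasted peak, with a median distance of 30362 bp, and 28.1% had none within 100 kb. Gained peaks arose closer to existing fed binding, at a median of 11115 bp from the nearest fed centre, and 11.9% had none within 100 kb. The fed list is the longer one, which by itself places fed centres closer together.

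How much of this difference would be met between 2 fed lists was then asked with the Bcl6 fl/fl livers. Of the fed C57BL/6 peaks, 30.6% (29.9 to 31.3) had no match among the fed floxed peaks, against 51.1% without a match among the fasted peaks. In the other direction, 37.8% of the floxed peaks were unmatched by the fed C57BL/6 list and 55.7% by the fasted list. The fasted peaks themselves were found again at nearly the same rate in both fed lists, 79.6% in C57BL/6 and 80.4% in floxed livers. The 3 lists differ in length, and the floxed and C57BL/6 lists also differ in genotype and experiment. As matches were one to one, at most 9613 of the 15642 fed C57BL/6 peaks could match the fasted list. The floxed list, with 17454 peaks, set no such limit, so 30.6% and 51.1% are not on the same footing. How much of the unmatched share beyond this limit comes from list length was not tested.

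A fed peak that recurred in floxed liver was more often kept. A floxed peak lay at 88.6% of kept sites (87.9 to 89.3) and 51.1% of lost sites (50.0 to 52.1), an odds ratio of 7.45 (6.86 to 8.09; two-sided Fisher's exact test, adjusted p at most 4e-300). Put the other way, 37.5% of the 10860 fed peaks seen in both fed lists were lost, against 81.7% of the 4782 seen only in C57BL/6. Gained peaks showed the same pattern. A floxed peak lay at 48.9% of gained and 88.4% of kept fasted peaks (odds ratio 7.99, 7.14 to 8.95; exact test, adjusted p = 3.28e-288). Gained peaks are defined by absence from a fed BCL6 list, and the floxed list is a second one. The direction was thus largely set by the definition, and nothing is concluded from this test. Of the 1957 gained peaks, 957 were at sites bound in fed floxed liver, and 1000, or 10.4% of all fasted peaks, were in neither fed list.

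**Figure D1:**
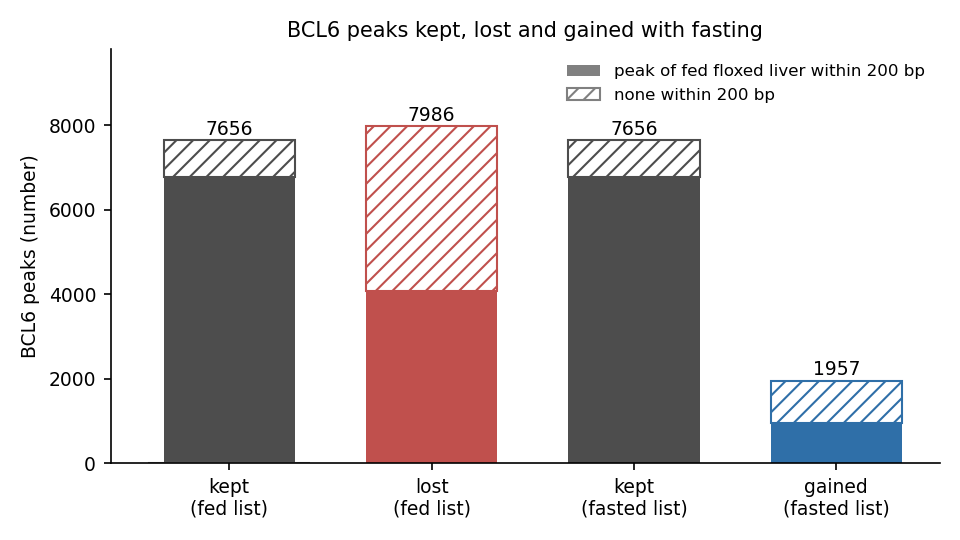
Number of BCL6 peaks (vertical axis) kept and lost in the fed list and kept and gained in the fasted list. The filled part has a BCL6 peak of fed floxed liver within 200 bp and the hatched part has none, and filled parts make up 88.6% of the kept fed bar, 51.1% of the lost bar and 48.9% of the gained bar.

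Kept BCL6 sites were more often PPAR sites than lost or gained ones. PPARα, which heads the hepatic response to fasting, was called in fed liver at 83.3% of kept and 57.3% of lost peaks (odds ratio 3.72, 3.45 to 4.00; Fisher's exact test, adjusted p = 5.27e-283). With the fasted PPARα list the shares were 83.7% and 52.9% (odds ratio 4.57, 4.24 to 4.93; exact test, adjusted p at most 4e-300). PPARδ, a more sparsely bound subtype, was called in fed liver at 37.8% of kept and 16.5% of lost peaks (odds ratio 3.07, 2.85 to 3.31; exact test, adjusted p = 1.95e-200). In fasted liver, where the PPARδ list is shorter, the shares were 9.87% and 3.07% (odds ratio 3.46, 2.99 to 4.01; exact test, adjusted p = 3.70e-70).

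Among fasted peaks, PPARα was called in fed liver at 83.3% of kept and 54.4% of gained peaks (odds ratio 4.19, 3.76 to 4.66; exact test, adjusted p = 2.70e-146). The distance was smaller with fasted PPARα, at 83.6% and 68.3% (odds ratio 2.36, 2.11 to 2.64; exact test, adjusted p = 1.79e-47). Thus gained BCL6 peaks had PPARα more often in the fasted than in the fed list, while lost peaks had it more often in the fed list. The fasted PPARα list is also the longer of the pair, with 29085 peaks against 21410. Fed PPARδ lay at 37.6% of kept and 18.2% of gained peaks (odds ratio 2.71, 2.39 to 3.07; exact test, adjusted p = 2.35e-63), and fasted PPARδ at 9.77% and 4.91% (odds ratio 2.10, 1.69 to 2.61; adjusted p = 1.27e-12).

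The feeding state of PPARα at the site was read beside that of BCL6. Where PPARα was called in both states, 36.5% of the 9368 fed BCL6 peaks were lost (35.6 to 37.5). Where it was called only in the fed state, 72.8% of 1588 were lost, and where it was called only in the fasted state, 63.5% of 1262 were. At the 3424 fed BCL6 peaks with no PPARα in either state the lost share was 76.1% (74.7 to 77.5). Sites with both PPARα and PPARδ in the fed state had a lost share of 29.5%, and those among them that recurred in floxed liver 24.9%, the lowest of the combinations counted. The highest, 89.3% (88.0 to 90.5), was at the 2374 fed peaks with neither a floxed BCL6 nor a fed PPARα peak. A site of BCL6 alone was therefore mostly lost, and a site shared by 3 factors mostly kept.

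The gained share ran differently along the same classes. It was 14.2% of 6922 where PPARα was called in both states and 16.2% where it was called only fed. Where PPARα was called only in fasted liver, 43.9% of the 814 fasted BCL6 peaks were gained (40.5 to 47.3), and 39.5% were gained at the 1357 with no PPARα. In absolute number, 980 gained peaks lay at constant PPARα sites, 357 at sites of PPARα in the fasted state only, 84 in the fed state only and 536 at none. Presence in 2 lists can follow the strength of a site, and no list gives the strength, so its part in these differences was not tested.

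**Figure D2:**
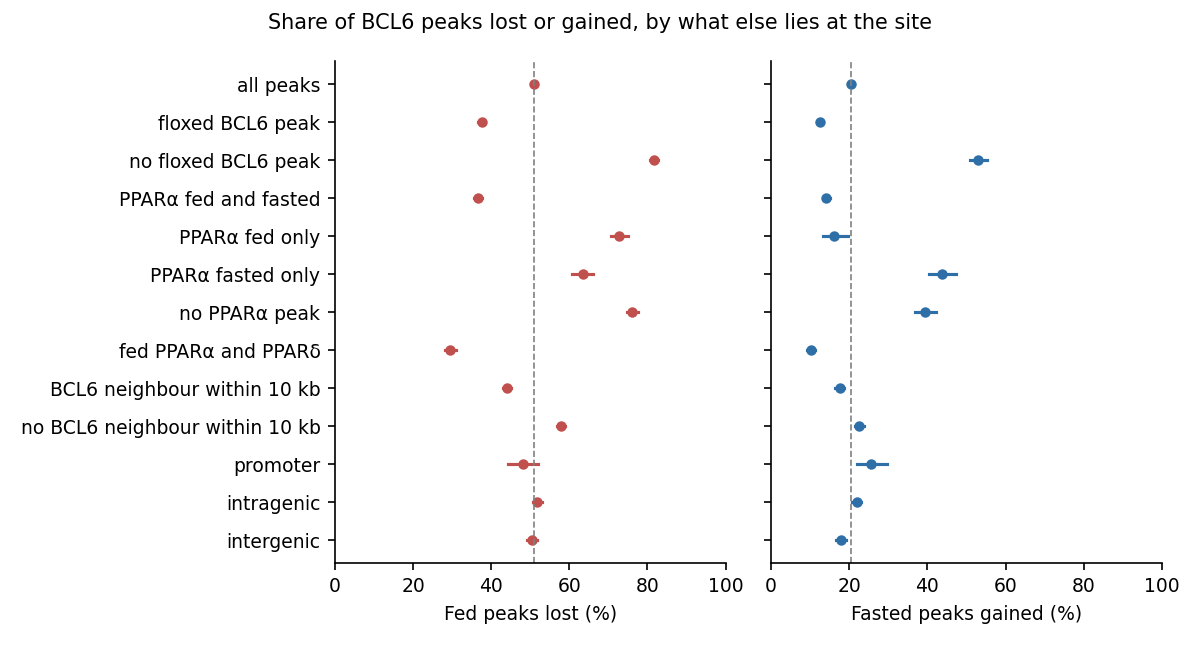
Share of fed BCL6 peaks lost (left, percent) and of fasted BCL6 peaks gained (right, percent) for all peaks and for classes of site, with 95% Wilson intervals and the share over all peaks as a dashed line. The lost share runs from 29.5% with fed PPARα and PPARδ to 81.7% without a floxed peak, and the gained share from 10.2% to 53.1% in the same classes.

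BCL6 peaks also had BCL6 neighbours. Another fed BCL6 peak lay within 10 kb of 56.0% of kept and 42.1% of lost peaks. Among fasted peaks a fasted neighbour was near 44.9% of kept and 37.4% of gained peaks. The state of the neighbour went with that of the peak. When the nearest fed neighbour within 10 kb was kept, 39.3% of peaks were lost (37.9 to 40.8), and when it was lost, 50.0% were (48.3 to 51.6). Within 100 kb the shares were 45.0% and 53.4%. Kept and lost peaks were thus intermingled. Neighbours come from the same lists that defined the classes, so these shares are descriptions and carry no test.

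By distance to the nearest transcription start, the lost share changed little over most of the genome. It was 41.6% (35.0 to 48.5) for the 202 fed peaks within 0.1 kb of a start, 52.3% between 0.1 and 1 kb, 48.3% between 1 and 10 kb and 50.3% between 10 and 100 kb. Beyond 100 kb it was 59.1% (1361 of 2304 peaks). The median distance was 20100 bp for kept and 23534 bp for lost peaks. Gained peaks leaned the other way, with a median of 17607 bp. Their share of the fasted list was 25.5% within 0.1 kb, 28.1% (24.3 to 32.3) between 0.1 and 1 kb, 20.7% and 19.8% in the next bins and 18.2% (16.1 to 20.5) beyond 100 kb.

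Floxed support moved with distance too. A floxed peak lay at 76.7% of fed peaks within 0.1 kb and at 65.8% of those beyond 100 kb. Among fed peaks with floxed support the lost share was 34.8% nearest to a start, 42.8% between 0.1 and 1 kb, 35.6% and 36.5% in the middle bins and 43.8% (41.4 to 46.3) beyond 100 kb. The higher loss far from starts was thus also found among recurrent peaks.

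Within promoters (reaching 1000 bp before and 100 bp past a start) lay 354 kept and 328 lost fed peaks, 4.62% (4.18 to 5.12) and 4.11% (3.69 to 4.56). The odds ratio was 1.13 (0.971 to 1.32; Fisher's exact test, adjusted p = 0.117), which misses the threshold of 0.05. Among peaks with floxed support its direction turned, to 0.883. Intragenic peaks outside promoters made up 51.6% of kept and 53.1% of lost peaks (odds ratio 0.939; exact test, adjusted p = 0.0580). Of the fasted peaks, 6.29% of gained (5.29 to 7.45) and 4.68% of kept ones were in promoters (odds ratio kept over gained 0.731, 0.592 to 0.903; exact test, adjusted p = 0.00438). Gained peaks were also more often intragenic, 56.4% against 51.5% (odds ratio 0.821, 0.742 to 0.907; exact test, adjusted p = 1.19e-04). Peaks gained against the fed C57BL/6 list were therefore shifted toward genes, by under 5 percentage points in each case.

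**Figure D3:**
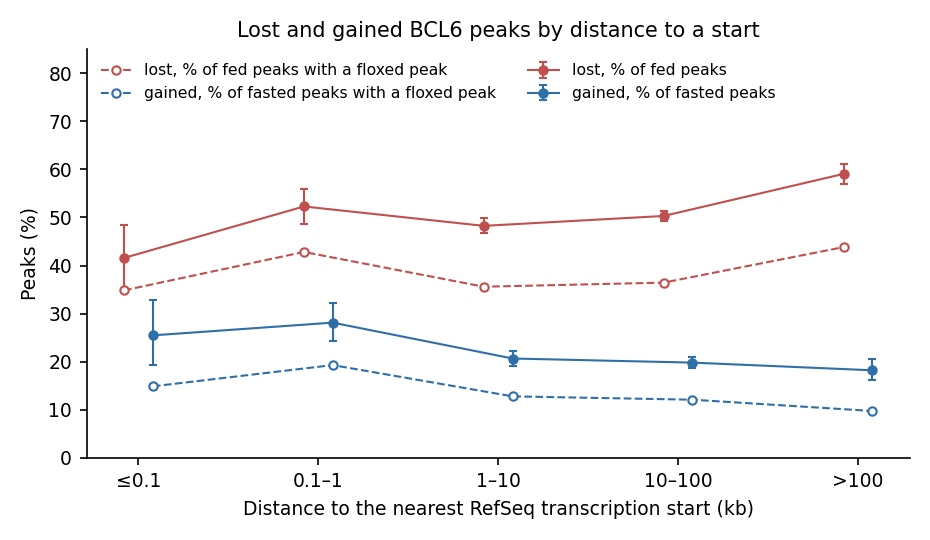
Lost share of fed BCL6 peaks and gained share of fasted BCL6 peaks (percent) by distance to the nearest RefSeq transcription start (kb). Filled points are all peaks with 95% Wilson intervals and open points are peaks with a fed floxed BCL6 peak at the site. Lost peaks are most frequent beyond 100 kb, at 59.1%, and gained peaks between 0.1 and 1 kb, at 28.1%.

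Loss was spread over the whole genome. On the 19 autosomes the lost share ran from 45.2% on chromosome 19 (41.3 to 49.2; 595 fed peaks) to 54.7% on chromosome 16 (50.8 to 58.5), and on 0 autosomes did fasted peaks outnumber fed ones. Chromosome 19 also had the densest fed binding, 9.69 peaks per Mb, against 4.84 on chromosome 14. Chromosome 13 was low as well, with 46.4% lost (42.9 to 49.9). The X chromosome stood apart. It held 244 fed peaks, 1.43 per Mb, and 155 of them were lost, or 63.5% (57.3 to 69.3). Floxed peaks lay at 70.5% of the X peaks, near the 69.4% over all fed peaks, and 52.9% of those (45.5 to 60.2) were lost, whereas on autosomes this share was between 32.3% and 40.5%. Fed PPARα lay at 60.2% of X peaks, below the 65.8% to 76.3% of the autosomes. The 2 fed peaks on chromosome Y were both lost. Over the 20 chromosomes with at least 100 fed peaks, 3 intervals of the lost share excluded the genome's 51.1%, those of chromosomes 13, 19 and X. Among autosomes the gained share was between 15.6% on chromosome 3 (12.9 to 18.7) and 24.4% on chromosome 5 (21.2 to 27.8), and these 2 intervals alone excluded 20.4%. On X it was 15.2% (9.60 to 23.3).

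**Figure D4:**
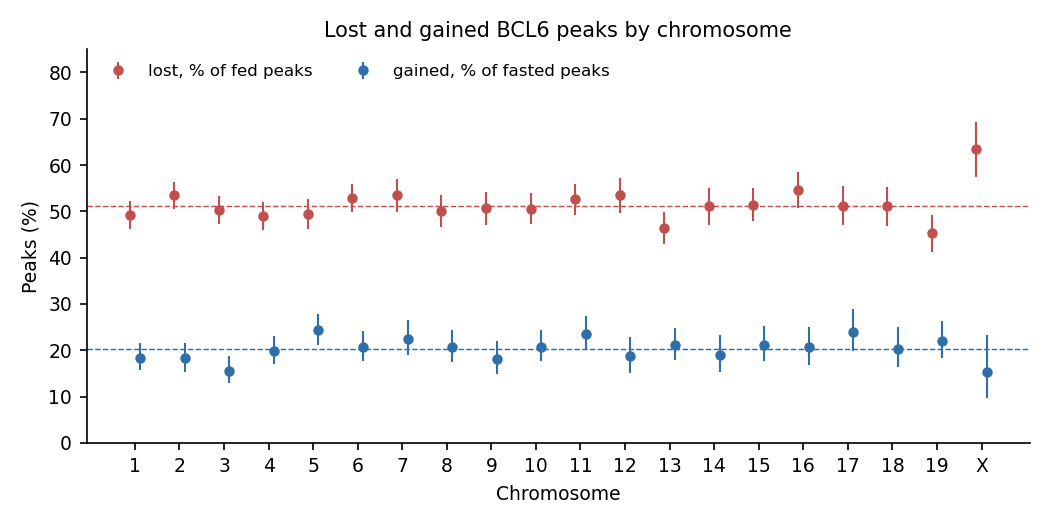
Lost share of fed BCL6 peaks and gained share of fasted BCL6 peaks (percent) on each chromosome with at least 100 fed peaks, with 95% Wilson intervals and the genome-wide shares of 51.1% and 20.4% as dashed lines. The autosomes lie between 45.2% and 54.7% lost, and X lies above them at 63.5%.

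Sequence at the centres was compared next. In windows of 50 bp, the BCL6 element TTCCTAGAA with up to 1 mismatch stood in 5.47% of kept and 4.57% of lost peaks, and in 1.60% of windows 1000 bp to either side (odds ratio kept over lost 1.21, 1.05 to 1.40; Fisher's exact test, adjusted p = 0.0352). The element CAAAGTCCA of HNF4, an orphan receptor that maintains hepatocyte identity, stood with up to 1 mismatch in 6.53% and 5.56%, and in 1.44% of flanks (odds ratio 1.19; exact test, adjusted p = 0.0352). For C/EBP, basic leucine zipper factors of hepatocytes, TTGCGCAA with up to 1 mismatch stood in 4.44% and 3.13% (odds ratio 1.44, 1.22 to 1.70; exact test, adjusted p = 1.61e-04), with 0.502% in the flanks. The other 6 of 9 elements missed the threshold. These calls depended on the window and the mismatches allowed. In 200 bp windows the PPAR element (odds ratio 1.14; exact test, adjusted p = 0.0196), HNF6 (0.868; 0.00347) and the glucocorticoid element (1.43; 0.00222) passed as well, and with 1 mismatch fewer HNF4 (1.06; 0.883) and C/EBP (0.927; 1) no longer did. Among the 6 were the STAT letters TTCNNNGAA, which overlap the BCL6 element, at 4.70% and 4.27%, and the PPAR element, a direct repeat of AGGTCA with 1 spacer base and up to 2 mismatches, at 2.81% and 2.74%. The FOXA letters TGTTTAC stood in 3.15% and 3.23%, the CREB letters TGACGTCA with up to 1 mismatch in 115 of 7656 and 144 of 7986, and the glucocorticoid element, an inverted repeat of AGAACA with 3 spacer bases and up to 2 mismatches, in 0.575% and 0.338%. Both strands were read, and a match describes letters, not binding. HNF6, a onecut factor of liver, had ATTGATT in 5.45% of kept and 6.09% of lost peaks, and it separated kept from gained peaks, at 5.21% and 3.17% (odds ratio 1.68, 1.28 to 2.21; exact test, adjusted p = 9.91e-04). It was the 1 element of 9 past the threshold in that contrast, against 6 in 200 bp windows. Gained peaks had the highest GC content, with a median of 47% over 200 bp, against 44.5% in kept and 43.5% in lost peaks, and at least 1 CpG in 88.3%, 83.2% and 80.5% of windows.

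For each peak the nearest start of a protein-coding gene within 1 Mb was taken. Fed peaks fell to 6087 genes. All peaks were kept at 1582 of these genes, all were lost at 2246, and 2259 had both. Another 411 genes had gained peaks and no fed ones. Of the 6499 genes with a peak in either list, the fasted list had fewer than the fed list at 4052, more at 720 and as many at 1727. Among these, Olfr1564 had a single kept fasted peak whose fed partner was nearest to another gene. Genes with a single fed peak lost it in 60.8% of 2785 cases (58.9 to 62.6), while 46.4% of the 6260 peaks at the 837 genes with 5 or more were lost (45.2 to 47.7). Of the 837 genes, 19 lost every fed peak and 33 lost none. The share of genes that lost every peak fell with their number of peaks. It was 30.6% of genes with 2 fed peaks, 14.2% with 3 and 2.27% with 5 or more. What shares independent loss of peaks would give was not tested, so these counts do not describe loci as units.

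Adgrl2, an adhesion G protein-coupled receptor, had 33 fed peaks, 16 kept and 17 lost, with 2 gained, the highest counts of kept and of lost peaks within the 1 Mb reach. Distance matters for such genes: 4 of the 33 peaks at Adgrl2 lay within 100 kb of its start (3 kept, 1 lost), and so did 13 of 28 at Lpp, 9 of 26 at Tbl1xr1, 13 of 18 at Igf1, 2 of 24 at Myc and 3 of 19 at Rad51b. Of the kept peaks at Adgrl2, 14 had a floxed peak, and of its lost peaks 6 did, beside 88.6% of all kept and 51.1% of all lost peaks. Lpp, a LIM domain protein of cell adhesions, kept 14 of 28, and Tbl1xr1, a corepressor complex subunit, kept 14 of 26 and gained 4. Igf1, the growth hormone target, kept 13 of 18 and gained 0. Most of the lost peaks at the other leading genes belonged to Nrip1, a corepressor of nuclear receptors (13 of 16 lost), Nrp1, a coreceptor for semaphorins and VEGF (13 of 20), Nfib, a nuclear factor I gene (13 of 21), and Rad51b, a DNA repair gene (12 of 19). At Nrip1, 9 of the 13 lost peaks had a floxed peak and 9 had fasted PPARα, beside 51.1% and 52.9% of all lost peaks. The same counts were lower at Nrp1, 4 and 2 of 13, and at Nfib, 4 and 5 of 13. At Rad51b they were 7 and 6 of 12. Within 100 kb of the start lay 6 of the 16 fed peaks at Nrip1, 9 of 20 at Nrp1 and 9 of 21 at Nfib.

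Insulin signalling genes showed each pattern. Irs2, which encodes the main insulin receptor substrate of fasted liver, had 22 fed peaks between 140569 bp before and 154165 bp past its start, 17 of them intergenic. It kept 15, lost 7 and gained 4, so the fasted list held 19. All 15 kept peaks recurred in floxed liver, against 5 of the lost and 1 of the gained ones. Over all kept, lost and gained peaks these shares were 88.6%, 51.1% and 48.9%. Insr, the insulin receptor, kept all 8 fed peaks, 7 of them within its intron 2, and gained 1. Pik3r1, the regulatory subunit of PI 3-kinase, lost 13 of 25 and gained 5, the most of any gene within the 1 Mb reach. Within 100 kb it had 11 fed peaks and gained 2, against 4 gained at each of Atxn2, Gna12 and Igfbp1. Fasted PPARα lay at 11 of the 12 kept, 3 of the 13 lost and 4 of the 5 gained peaks of Pik3r1. Over all kept, lost and gained peaks the shares with fasted PPARα were 83.7%, 52.9% and 68.3%. Over the 12 genes of the insulin list, 32 of 82 fed peaks were lost, or 39.0% (29.2 to 49.8).

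Complete loss at a gene with many peaks was clearest at Hpgd, which encodes the enzyme that inactivates prostaglandins. All 11 of its fed peaks were lost, spread between 63429 bp before and 112942 bp past the start, including one 894 bp upstream, and all were intergenic. Of the 11, 9 had a floxed peak, beside 51.1% of all lost peaks. A single gained peak lay 16196 bp upstream. Rere, a nuclear receptor coregulator, lost 7 of 7, all within the gene, and gained 2. Nfe2l3, Slc35b3, Zfat and D16Ertd472e lost 6 each and gained 0, and 13 further genes lost 5 each, among them Npc1 of cholesterol export from lysosomes, the prostaglandin receptor gene Ptger3 and the carboxylesterase gene Ces3b. Many of these peaks were distant. Within 100 kb lay 0 of 5 at Ptger3, 1 of 6 at Slc35b3, 2 of 6 at Zfat, 3 of 6 at Nfe2l3 and 2 of 7 at Rere. At Hpgd 10 of 11 did, at D16Ertd472e 5 of 6, and at Npc1 and Ces3b all 5. Floxed support varied: 1 of 5 lost peaks had it at Npc1 and at Ces3b, and 2 of 5 at Ptger3. It was 4 of 7 at Rere, 4 of 6 at Slc35b3 and D16Ertd472e, and 5 of 6 at Nfe2l3 and Zfat. At Ces3b a gained peak 20680 bp past the start lay close to a lost one at 20943 bp. These 2 would pair at the alternative match distance of 400 bp.

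Complete retention was seen at Insr, Setd4 and Ttpa with 8 peaks each. Setd4 is a SET domain gene, and Ttpa encodes the vitamin E transfer protein of liver. Errfi1, an inhibitor of EGF receptor signalling, Stt3b, a subunit of oligosaccharyltransferase, Cmah, Ly6l and Susd1 each kept 7 of 7. Igfbp1, a hepatokine raised by fasting, kept all 6 fed peaks and gained 4, so its fasted list of 10 was longer than the fed one. The peak at its promoter, 183 bp upstream, was kept. Of the 4 gained peaks, all within introns of the neighbours Adcy1 and Ccdc201, 4 had fasted PPARα and 1 had a floxed peak. Gna12, a G protein α subunit, lost 1 of 1 and gained 4, all in its intron 1 and all with fasted PPARα, and Klf14, a Krüppel-like factor gene, lost 1 of 1 and gained 4, all of which had a floxed peak and lay over 100 kb from its start. Over all gained peaks, fasted PPARα lay at 68.3% and a floxed peak at 48.9%. All these genes were picked by their counts, which are descriptions.

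Next, 13 genes whose regions the study assayed by ChIP-qPCR or displayed were counted. Together they had 57 fed peaks, of which 42 were kept and 15 lost, or 26.3% (16.6 to 39.0) beside 51.1% over all fed peaks, and 8 of their 50 fasted peaks were gained, or 16.0% beside 20.4%. With 3 further genes shown as tracks, added after their values were seen, 16 of 63 fed peaks were lost, or 25.4% (16.3 to 37.3). Of these, the pantetheinase gene Vnn1 kept 2 of 2, Aldh3a2 kept 3 of 3 and Ppard lost 1 of 1. These genes were chosen on these data, so the share is no independent evidence. Acot4 and Acot3, thioesterases that release fatty acids from CoA, kept 4 of 4 and 3 of 3. Kept means only that a peak was called in both states. At sites shared with PPARα the study reported a fall in BCL6 binding with fasting. It named Acot4/3 and Por among the examples and checked the fall by ChIP-qPCR. The gained peak 905 bp upstream of Acot2 was the 1 peak assigned to that gene by nearest start. It had no PPARα peak in either state and is not the Acot2 region that the study assayed. Counts by nearest start therefore need not cover the assayed regions. Bdh1, which interconverts the ketone bodies, kept 3 of 5, including the one 58 bp upstream, and gained 1. Por, the electron donor of cytochromes P450, kept 7 of 8, and its lost peak was the promoter peak 412 bp upstream. Ehhadh, the peroxisomal bifunctional enzyme, kept 5 of 7 and gained 2, one of them 467 bp upstream. The fatty acid transporter gene Cd36 kept 4 of 6, and Angptl4 kept 2 of 4. Promoter peaks of lipid genes were thus kept, lost and gained side by side.

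Lists of genes by function were then read beside the 51.1%. Of 26 lists, 24 had a lower lost share, with a median over lists of 38.7%, and 25 had fewer fasted than fed peaks. Peaks of any listed gene were lost in 423 of 1069 cases, 39.6% (36.7 to 42.5), against 51.9% of all other fed peaks, but they also recurred more often in floxed liver, at 79.3% (76.8 to 81.6) against 68.7%. Among recurrent peaks the shares were 30.2% (27.2 to 33.4) and 38.2% (37.2 to 39.1). Listed genes are mostly liver genes with several peaks each, and no list was tested.

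Genes of fatty acid use and ketone production, pathways that fasting engages, kept most of their peaks. Such retention was not particular to them, as 39.6% of peaks of any listed gene were lost and glycolysis and glycogen genes lost 26.7%. Microsomal ω-oxidation, which hydroxylates the end of fatty acids, lost 4 of 22 peaks, or 18.2% (7.31 to 38.5), and gained 3. Cyp4a10 kept 2 of 2, Cyp4a14 kept 1 of 1 and gained 1, and Aldh3a2 kept 3 of 3 and gained 1. Ketone body genes lost 4 of 17, and Slc16a1, a monocarboxylate carrier, kept 2 of 2. Acyl-CoA thioesterases lost 7 of 21, fatty acid uptake and activation 16 of 43, with Acsl1 at 10 of 12 kept, and lipid droplet genes 12 of 31. Closer to the 51.1% lost over all fed peaks were mitochondrial β-oxidation with 13 of 30 lost and peroxisomal β-oxidation with 18 of 43. Cpt1a of the carnitine shuttle kept 3 of 3, while Hadha lost 2 of 2, Acadm 3 of 4 and Abcd3 7 of 10. Of mitochondrial members, 4 kept all fed peaks and 2 lost all, and of peroxisomal members 1 and 2 did. Among thioesterase, uptake and lipid droplet genes, Acot11 and Acsl3 each lost 2 of 2, and Hilpda 3 of 4. In the list of nuclear receptors, 5 of 21 were lost, and Ppara kept 5 of 6 and gained 1.

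Genes of glucose production were also largely kept. Gluconeogenesis lost 17 of 56 (30.4%, 19.9 to 43.3). Pck1, which commits oxaloacetate to glucose, kept 6 of 6, G6pc kept 5 of 6, and Foxo1, the insulin-inhibited activator of both, kept 12 of 16, while Klf15 kept 1 of 5. Of the 16 peaks at Foxo1, 2 lay within 100 kb of its start, both kept. Glycolysis and glycogen genes lost 8 of 30. De novo lipogenesis lost 22 of 57. The core enzyme genes Acly, Acaca and Fasn each had 1 fed peak, which was lost, while Elovl6 kept 9 of 12 and Elovl5 kept 6 of 8. Pdk4, which shuts pyruvate out of oxidation, kept 5 of 6 and gained 2. Glucocorticoid and stress genes lost 17 of 51, with Gadd45g keeping 12 of 15. Within 100 kb of the Gadd45g start lay 4 of the 15, all kept.

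The lists with the largest lost shares were those of BCL6 in lymphocytes and of the clock. Lymphocyte BCL6 targets lost 39 of 69, or 56.5% (44.8 to 67.6), and all 8 members with a peak had fewer in the fasted list, as did 62.3% of all genes with a peak. The interval holds the 51.1% of all fed peaks, and with a reach of 100 kb the list's share was 51.9% (34.0 to 69.3). Bcl6 itself, which represses its own gene in B cells, had 16 fed peaks, of which 9 were lost and 7 kept, with 0 gained. Myc lost 12 of 24, Id2 lost 8 of 14 and Prdm1, the plasma cell regulator, lost 5 of 9, while Irf4, Bcl2, Cd44 and Ccnd2 had no peak in either state. Clock genes lost 33 of 61 (54.1%, 41.7 to 66.0), with Rora at 12 of 25, Bhlhe40 at 5 of 8 and Nfil3 at 4 of 5. Growth hormone and STAT genes lost 22 of 60, with Stat5b at 4 of 5 and Socs2 at 2 of 8. Hepatocyte factors lost 36 of 82, among them all 3 at Hnf4a, 10 of 20 at Foxa2 and 2 of 9 at Prox1. Corepressor genes lost 23 of 51, with Bcor at 6 of 17.

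The remaining lists lay between these. Bile acid genes lost 21 of 54, with Cyp7b1 at 7 of 12, and cholesterol genes 12 of 26, with Insig2 at 2 of 5. Urea cycle and amino acid genes lost 20 of 47, with Cps1, which fixes ammonia, at 7 of 12. Secreted liver proteins lost 22 of 61, and Alb, the hallmark gene of hepatocytes, kept 7 of 10. Fasting hepatokines lost 7 of 20, the list of pyruvate dehydrogenase kinases 5 of 15, autophagy 8 of 20 and the respiratory chain 1 of 2. Markers of other liver cells were counted beside the 29.0% of protein-coding genes with a fed peak. Kupffer cell genes had fed peaks at 0 of 7 genes, lymphocyte genes at 1 of 7, stellate cell genes at 2 of 7, endothelial genes at 5 of 7 and cholangiocyte genes at 3 of 6. The peaks numbered 1 for lymphocytes, 4 for stellate cells, 12 for endothelium and 17 for cholangiocytes, of which 15 belonged to Sox9. At Sox9 8 were lost and 4 gained, but 2 of the 15 lay within 100 kb, and within that reach the lost share of cholangiocyte genes moved from 58.8% to 100% (51.0 to 100) and that of stellate cell genes from 50.0% to 0% (0 to 79.3).

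**Figure D5:**
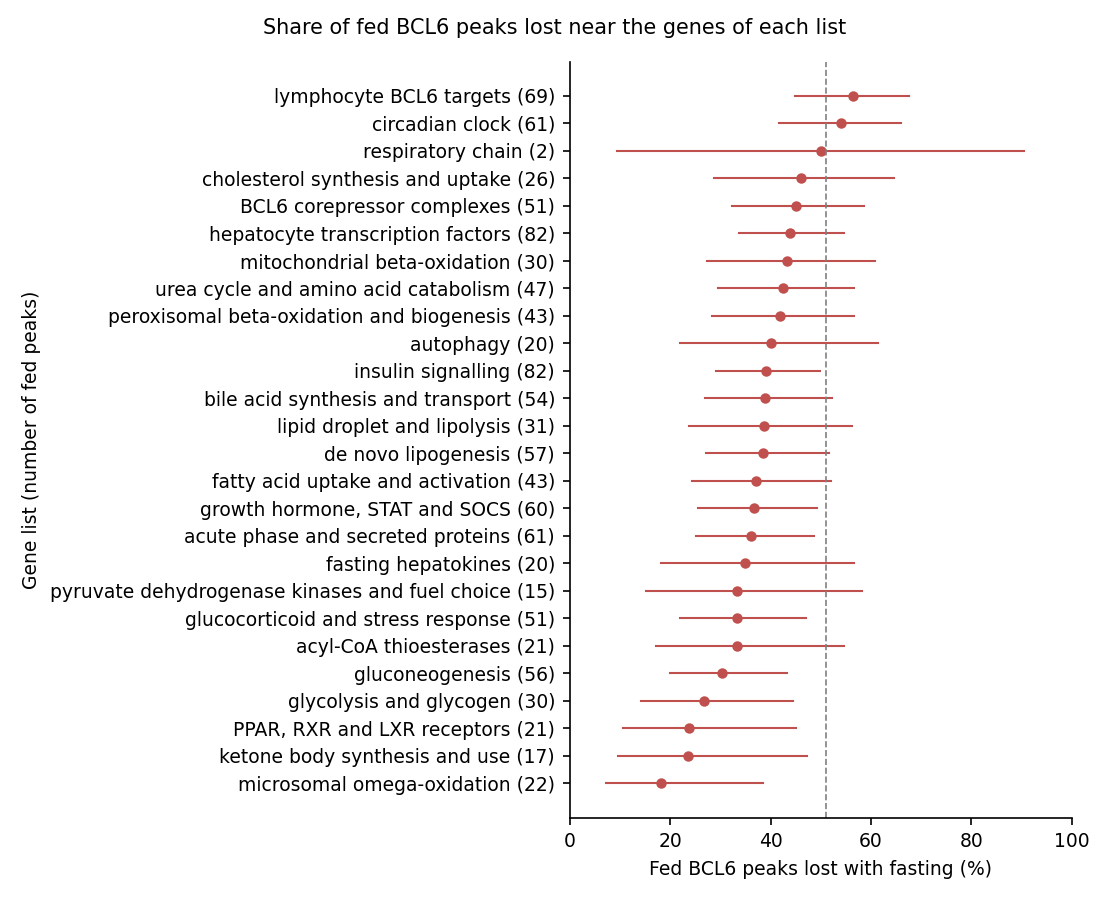
Share of fed BCL6 peaks lost with fasting (percent, horizontal axis) near the genes of 26 functional lists, with the number of fed peaks in brackets, 95% Wilson intervals and the 51.1% of all fed peaks as a dashed line. The lists run from 18.2% for microsomal ω-oxidation to 56.5% for lymphocyte BCL6 targets, and 24 points lie left of the line.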

How the data were processed

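BCL6, PPARα and PPARδ ChIP-seq peak lists of male mouse liver were used, each made by the authors from 3 samples of 1 group. Per the labels and the study's methods, alignment to mm10 used Bowtie, with unique alignments and 1 read allowed per start. HOMER found peaks in the pooled replicates over input, and the authors then required 2-fold enrichment and a false discovery rate of 0.05 across the individual libraries. The deposited files hold 3 columns of positions with no unit of abundance, no normalization and no depth. Peaks of a list share 1 width, 216 bp for fed and 210 bp for fasted BCL6, and uniquely aligned reads leave near-identical copies such as Acot genes uncertain.

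From these positions, fed and fasted centres were matched within 200 bp. Starts came from 45756 RefSeq transcripts and nearest genes from 21000 protein-coding genes of GRCm38, within 1 Mb. Properties and sequence elements were compared between kept and lost, and kept and gained, peaks by Fisher's exact test (two-sided), and p-values were adjusted by Benjamini-Hochberg over 8 properties or 9 elements per contrast. Among the 8, a neighbouring peak of the same list rests on the positions used for matching, so its shares are given without a test. For gained peaks, the floxed property lies close to the definition of the class, so its test is no separate evidence. Peaks are not replicates, so tests and 95% Wilson intervals cover counting over peaks, and the p-values do not cover variation between mice. The smallest p computed was set to 1e-300. Members, gene lists and markers were chosen with earlier results of these data known. Named genes were 13 of the study's ChIP-qPCR regions and tracks, the 8 with the most kept, lost or gained peaks, those with 5 or more fed peaks all lost, the 8 with the most fed peaks among genes with all kept, and the member of each list with the most peaks. Other list members, and Keg1, Rrn3, Serpina3f, Olfr1564, Vnn1, Aldh3a2 and Ppard, were named after their values were seen. Values of some single genes are not reported here. Alternatives were match distances of 100 and 400 bp, interval overlap, other promoter windows, autosomes, peaks with floxed support, other scan windows and mismatches, and a reach of 100 kb. Functions were tested on simulated lists and sequences. Python 3.11.15, NumPy 2.4.6, SciPy 1.17.1, pandas 2.3.3, pysam 0.24.0 and Matplotlib 3.10.9 were used.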

Additional observations from a re-analysis of the deposited data

How the results depend on the processing

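The lost share was 52.5% with centres matched within 100 bp and 37.5% among fed peaks with floxed support. The gained share was 22.6% within 100 bp and 10.4% for peaks unmatched by both fed lists. Matching within 400 bp, interval overlap, autosomes alone and peaks outside promoters left both shares within their intervals. Of 70 odds ratios of tested properties, 66 kept direction and side of the threshold. The promoter odds ratio of kept over lost peaks passed the threshold at 1.20 with a window of 5000 bp before and 1000 bp past the start, and turned to 0.883 with floxed support, not past the threshold. The intragenic one passed at 0.935 with 100 bp matches and at 0.933 on autosomes. Elements were the least stable. Those past the threshold numbered 6 in each contrast with 200 bp windows, against 3 for kept and lost and 1 for kept and gained peaks, and 1 for kept and lost peaks with 1 mismatch fewer. Kept over lost, the odds ratio turned to 1.06 for FOXA and 1.11 for CREB in 200 bp windows, to 1.02 for FOXA with repeats masked, and with 1 mismatch fewer to 0.797 for the PPAR element, 0.927 for C/EBP, 2.61 for CREB and 0.695 for the glucocorticoid element. Kept over gained, it turned to 1.20 for HNF4 and 0.885 for CREB in 200 bp windows, and with 1 mismatch fewer to 1.11 for the PPAR element, 1.18 for HNF4 and 0.447 for C/EBP. The cause was not tested, but fewer windows match with 1 mismatch fewer. Of 30 list shares with a reach of 100 kb, 28 stayed within their intervals, and those of cholangiocyte (100%) and stellate cell genes (0%) did not.

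No paired analysis was possible because each list pools its 3 samples, and leaving out a replicate was impossible for the same reason. Read depth and enrichment of the fasted libraries are unknown here, and their part in the lost share of 51.1% was not tested.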
